A study of Homo sapiens with 5 samples.

Results

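The genes described here are 56 expressed genes of the long arm of human chromosome 8, from RB1CC1 nearest the centromere to MYC. They were picked from the 57905 genes with counts for their position, spread along the arm, and not for their own change. The arm itself, however, was selected from the comparison of edited with wild-type cells, where it stood at the upper end of 41 chromosome arms. Its tested genes had a median log2 fold change of 0.32, the short arm of chromosome 7 also 0.32 and the short arm of chromosome 1 0.30, while the long arms of chromosomes 13 and 11 lay further from 0, at -0.43 and -0.49. A shift of this size is thus not particular to the long arm of chromosome 8. That comparison is therefore given as a description of the members, with no test. All 56 were among the 16471 genes that passed the filter on low counts.

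The cells were of the human astroglial line SVG-10B1, an established line grown with fetal calf serum, and their total RNA was sequenced. The wild-type group held 2 libraries of the unedited line, which the labels give the clone number 1. The edited group carried IDH1 R132H/WT, a substitution in one allele of the gene for cytosolic isocitrate dehydrogenase, and held 1 library of clone 2 and 2 libraries of clone 6. Both edited lines are single clones and no further unedited clone is analysed here, so an effect of the edit and a property of the clones cannot be told apart. Whether the replicates came from different cultures is not in the labels, and p-values measure only the spread between these libraries, which may be technical.

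Neighbouring genes on a chromosome arm mostly serve unrelated functions and are switched on and off independently. They share the number of DNA copies of their segment, and cultured and tumour cells often gain or lose whole arms or parts of them. The long arm of chromosome 8 is known for frequent gains in cancer, and it carries MYC, a transcription factor that drives growth and ribosome production. It also encodes subunits of large assemblies whose other subunits are spread over the genome, among them the translation initiation factor eIF3, the respiratory chain, cohesin and Mediator. Read counts per gene do not measure DNA copies, and in bulk RNA fewer expressing cells and less RNA per cell cannot be told apart.

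Reads assigned to genes came to between 13572114 and 21881726 per library. The members took 0.486 and 0.511% of them in wild type and 0.549 to 0.66% in the edited libraries. Ribosomal RNA took between 0.417 and 9.79% of reads and was high in 1 wild-type and 1 edited library. The targeted gene IDH1 had 119 and 117 CPM (read counts scaled to a common library total, with the scaling factors applied) in wild type and 104 to 110.5 CPM in the edited libraries, and counts do not show the edit. Of 12 astrocyte markers, 6 reached 1 CPM in every library, AQP4 had no reads in any, and GFAP, S100B, SLC1A2 and ALDH1L1 stayed below 1 CPM throughout, and the summed markers had 883 to 953 CPM in wild type and 1126 to 1321 CPM in the edited libraries. Summed endothelial markers had 36.4 to 40.7 CPM in wild type and 9.13 to 13.2 CPM in the edited libraries, where 2 of 6 reached 1 CPM in every library. Summed neuron markers had 7.21 to 7.70 and 19.4 to 21.9 CPM, with 1 of 8 at that level and no reads of TUBB3 or STMN2. Markers of fibroblasts and pericytes summed to 1752 to 1967 CPM in wild type and 553 to 1746 CPM in the edited libraries, with 3 of 8 at that level. Oligodendrocyte markers summed to 8.86 to 10.9 and 9.23 to 10.8 CPM, with MOG, MAG, OLIG1 and OLIG2 at 0, and microglia markers to 1.54 to 2.50 and 0.938 to 1.30 CPM, with CX3CR1 and C1QA at 0. The part of these differences in the results below was not tested.

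The edited libraries were not equally distinct from each other. Over the 56 members, clone 2 and the library labelled clone 6 replicate 1 differed by little more than counting noise, as a chi-square test per gene gave a median 1.59 times that of counting noise alone. Between the wild-type replicates that ratio was 4.02, and between the libraries labelled clone 6 it was 24.9. Below, values of a pair are given with replicate 1 first, and results are also given with clone 2 and clone 6 replicate 1 summed, or without clone 6 replicate 2.

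The members were on balance higher in the edited libraries. Their median log2 fold change, edited against wild type, was 0.35, a 1.27-fold difference, where the median of all tested genes was 0.025. Of the 56 members, 45 had a positive and 11 a negative log2 fold change. In 33 members all edited libraries lay above both wild-type libraries, in 4 all lay below, and in 19 the groups overlapped. Over all tested genes, 26.1% lay wholly above and 25.3% wholly below. At an adjusted p below 0.05 in edgeR's quasi-likelihood test (Benjamini-Hochberg over all tested genes), 18 members were called higher and 1 lower, where 7.64% of all tested genes were called higher and 9.49% lower. Since this contrast chose the arm, nothing is read from these counts.

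Library by library, the members' median difference from the wild-type mean on the log2 CPM scale was 0.25 for clone 2, and 0.16 and 0.41 for the clone 6 pair. The wild-type replicates themselves lay at -0.024 and 0.024. Each edited library stood further from that mean, and clone 6 replicate 2 furthest. The wild-type replicates set the mean, so their distances from it are equal and opposite and are no measure of spread for the edited libraries. Between the wild-type replicates the median difference was 0.048. Without clone 6 replicate 2 the median log2 fold change of the members was 0.20, and with clone 2 and clone 6 replicate 1 summed it was 0.37. The number of members called higher was 2, PAG1 and ATP6V1C1, when either one of the wild-type libraries was left out, where 1.06% (replicate 1 left out) and 1.46% (replicate 2) of all tested genes were called higher. It was 7 without clone 2 and 10 without clone 6 replicate 1, beside 4.12 and 3.89% of all tested genes. It was 25 both without clone 6 replicate 2 and with a term for the replicate number, beside 17.2 and 13.3%, and 8 with the summed library, beside 3.91%. With the share of ribosomal RNA as a covariate it was 13, beside 5.22%, and LACTB2, UQCRB, COX6C, ENY2 and TAF2 were no longer called.

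**Figure D1:**
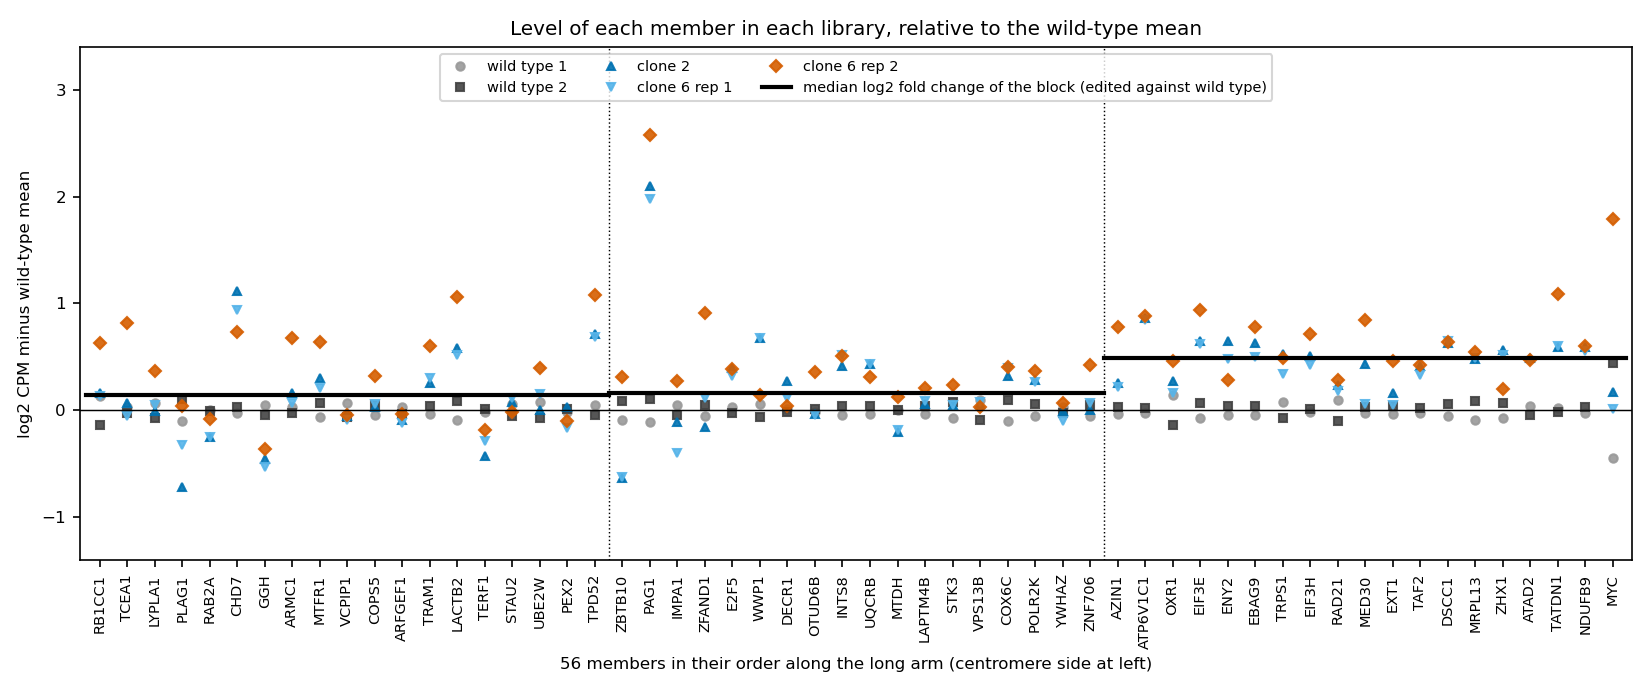
Level of the 56 members in each of the 5 libraries as log2 CPM minus the wild-type mean (vertical axis), in gene order along the arm (horizontal axis). Points are libraries, thick lines are the median log2 fold changes of the proximal, middle and distal block, and dotted lines part the blocks. In the distal block the points of the edited libraries lie above 0 for all 19 genes, and PAG1 and MYC stand out.

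The shift was not spread evenly along the arm. The members were cut into 3 blocks by their order from the centromere. The proximal block, 19 members from RB1CC1 to TPD52, had a median log2 fold change of 0.14, and the middle block, 18 members from ZBTB10 to ZNF706, one of 0.16. The distal block, 19 members from AZIN1 to MYC, had a median of 0.49, a 1.40-fold difference, and all 19 were positive. Of these 19, 18 had every edited library above both wild-type libraries, and MYC was the exception. In the first 2 blocks together, 15 of 37 members lay wholly above, 4 wholly below and 18 overlapped. The distal block was also the most uniform, with an interquartile range of 0.20 against 0.44 in the proximal and 0.31 in the middle block.

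The step between the middle and the distal block was present in each edited library. In clone 2 the medians of the proximal, middle and distal blocks stood 0.031, 0.059 and 0.51 above the wild-type mean on the log2 CPM scale. The library clone 6 replicate 1 gave nearly the same series, with 0.055, 0.10 and 0.46. In clone 6 replicate 2 the medians were 0.37, 0.31 and 0.60, so that the members of its proximal and middle blocks were also raised. Without that library the log2 fold change medians of the blocks were 0.030, 0.056 and 0.46. Spearman's rho between log2 fold change and order along the arm was 0.45 over the 56 members, which share libraries and are not independent, and rho was 0.026 with the average level and 0.044 with gene length.

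The other tested genes of the arm had a similar order along it. The 286 long-arm genes outside the 56 had a median log2 fold change of 0.31, with 142 wholly above and 36 wholly below wild type, and the 204 tested genes of the short arm one of 0.060. When the 342 tested long-arm genes were split into 10 bins of 34 or 35 genes by gene order, counted from the centromere, the medians of the first 5 were 0.041, -0.033, 0.24, 0.027 and 0.18. From bin 6, which starts the distal block of the members, they were 0.45, 0.50, 0.42, 0.46 and 0.60. With the members left out, the medians of the first 5 bins were 0.039, -0.067, 0.28, -0.0098 and 0.20. Those from bin 6 on were then 0.43, 0.53, 0.38, 0.46 and 0.60. On the log2 CPM scale, the 286 genes had medians of 0.29 in clone 2 and of 0.29 and 0.32 in the clone 6 pair. In bins 1 to 5 their medians were 0.13, 0.0055, 0.31, -0.053 and 0.29 in clone 6 replicate 2. Clone 2 had -0.017, 0.16, 0.27, 0.015 and 0.24 there. The excess of clone 6 replicate 2 among the members of the first 2 blocks was thus not matched by these genes. Bins 9 and 10 lie beyond MYC and hold none of the members. In bin 10, next to the chromosome end, all 35 genes had a positive log2 fold change, 26 of them with no overlap between the groups.

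**Figure D2:**
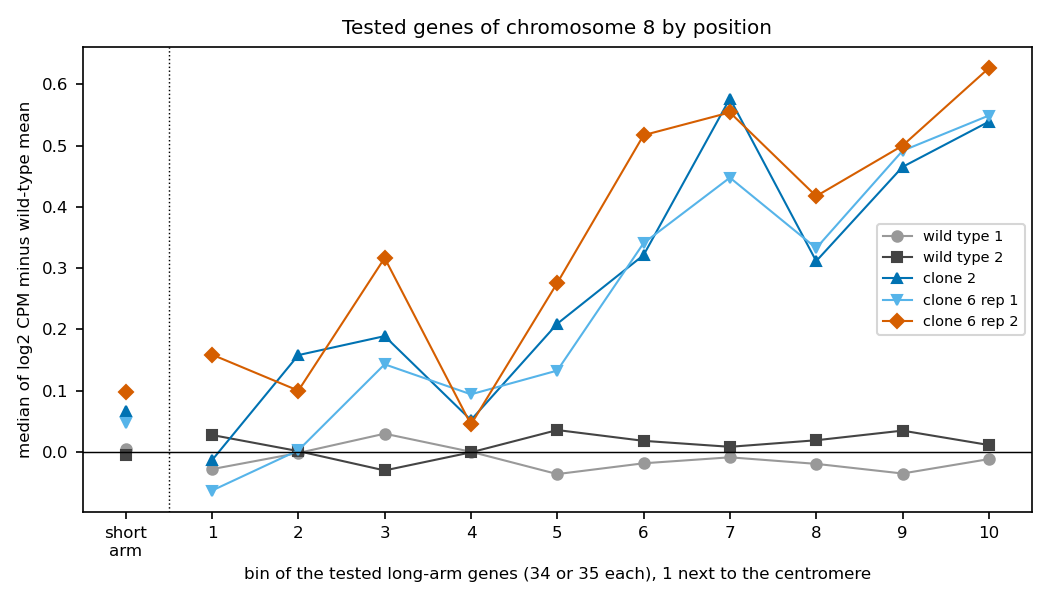
Median of log2 CPM minus the wild-type mean (vertical axis) over the tested short-arm genes and over 10 bins of the 342 tested long-arm genes in gene order (horizontal axis), with 1 line per library. The edited libraries lie at or below 0.32 in bins 1 to 5 and between 0.31 and 0.63 in the last 5, while the wild-type replicates stay within 0.036 of 0.

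Genes for translation and energy metabolism were among the uniformly higher members of the distal block. EIF3E, a subunit of the initiation factor that brings ribosomes to mRNA, stood at 335 and 368 CPM in the wild-type pair, at 550 in clone 2 and at 541 and 673 in the clone 6 pair. Its log2 fold change was 0.74 (SE 0.126). EIF3H, another subunit of the same factor, averaged 216 ± 2.96 CPM (SD, n = 2) in wild type and 316 ± 33.3 CPM (SD, n = 3) in the edited libraries, with 0.55 (SE 0.11) as its log2 fold change. Both genes were lowest in the wild-type libraries and highest in clone 6 replicate 2.

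NDUFB9, an accessory subunit of respiratory complex I, stood at 78.9 and 81.8 CPM in the wild-type pair, at 121 in clone 2 and at 118 and 122 in the clone 6 pair. The edited libraries nearly coincided above the wild-type pair, with a log2 fold change of 0.58 (SE 0.0838). MRPL13 of the mitochondrial ribosome also had edited libraries close together, with 58.1 ± 5.09 CPM (SD, n = 2) in wild type, 82.5 ± 2.19 CPM (SD, n = 3) in the edited libraries and a log2 fold change of 0.51. In the middle block, UQCRB of complex III and COX6C of cytochrome c oxidase had log2 fold changes of 0.39 and 0.37, also with no overlap. COX6C shares its sequence with 17 named pseudogenes in the files, and the division of reads between them is uncertain. Among other members with mitochondrial products, LACTB2, an endoribonuclease of the matrix, was at 0.75, MTFR1, a fission regulator, at 0.40 and DECR1, a reductase of fatty acid oxidation, at 0.15.

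ATP6V1C1, a subunit of the proton pump that acidifies lysosomes, had the largest log2 fold change of the distal block. It stood at 89.9 and 92.8 CPM in the wild-type pair, at 167 in clone 2 and at 164 and 168 in the clone 6 pair. The edited values nearly coincided, and the log2 fold change was 0.87 (SE 0.083). Among other genes of membranes and secretion, TRAM1, a component of protein translocation into the endoplasmic reticulum, was at 0.39 and TPD52, a vesicle trafficking protein, at 0.84. The lysosomal membrane protein LAPTM4B was at 0.12, the Golgi GTPase RAB2A at -0.19 and ARFGEF1, which activates ARF GTPases, at -0.083. RAB2A and ARFGEF1 were 2 of the 4 members whose edited libraries all lay below wild type.

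Genes of the transcription machinery and of DNA replication in the distal block ranged from 0.23 for RAD21 to 0.64 for DSCC1 in log2 fold change. TAF2, a subunit of the initiation factor TFIID, stood at 101 and 104 CPM in the wild-type pair, at 136 in clone 2 and at 129 and 137.5 in the clone 6 pair, a log2 fold change of 0.39. MED30 of Mediator was at 0.49 and ENY2, a subunit of the SAGA and mRNA export complexes, at 0.48. MED30 had 7.10 CPM in wild-type replicate 2 and 7.28 CPM in clone 6 replicate 1, so that its groups were barely apart. DSCC1, which helps load the replication clamp, had 30.6 and 33.1 CPM in wild type and 49.3, 49.9 and 49.5 CPM in the edited libraries, a log2 fold change of 0.64. ATAD2, a chromatin-bound ATPase, was at 0.47. RAD21, the cohesin subunit cleaved at anaphase, and EXT1, an enzyme of heparan sulfate synthesis, had the lowest values of the distal block, 0.23 each.

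Several members departed from their surroundings. As a measure, each was set against the median of the 20 nearest tested long-arm genes outside the 56, 10 on each side. Such genes scatter widely, with interquartile ranges of 0.68, 0.79 and 0.82 in bins 1, 2 and 3 of the arm. Departures smaller than that are not set apart from the scatter between neighbouring genes. PAG1, an adaptor that recruits the kinase CSK to the membrane, stood at 2.68 and 3.14 CPM in the wild-type pair, at 12.8 in clone 2 and at 11.8 and 17.8 in the clone 6 pair. Its log2 fold change of 2.29 (SE 0.24) was the highest of all members and stood 1.93 above the median of its neighbours. The next tested gene beyond PAG1 on the arm, outside the 56, was at 2.22. FABP5, the gene after that, was at 0.20, and ZBTB10, just before PAG1, at -0.24. PAG1 overlaps 2 annotated genes, and whether it shares reads with an adjacent gene was not tested. CHD7, a chromatin remodeller, stood at 3.004 and 3.14 CPM in the wild-type pair, at 6.77 in clone 2 and at 5.97 and 5.19 in the clone 6 pair. Its log2 fold change was 0.96 (SE 0.198), 1.07 above a neighbourhood at -0.11. LACTB2 stood 0.73 above its neighbours, MTFR1 0.52 and TPD52 0.48.

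GGH, a lysosomal hydrolase of folates, stood at 48.9 and 45.9 CPM in the wild-type pair, at 34.5 in clone 2 and at 32.6 and 36.9 in the clone 6 pair. Its log2 fold change of -0.45 (SE 0.103) was the lowest of the members, and its neighbours lay at -0.19. GGH was the 1 member called lower, and it was not called with the ribosomal RNA covariate, with the summed library, or when either wild-type library, clone 2 or clone 6 replicate 1 was left out. The members furthest below their neighbours were ZBTB10 and TERF1, with departures of -0.60 and -0.54, then PEX2, IMPA1 and PLAG1 with -0.44, -0.41 and -0.34, and GGH departed by -0.26. TERF1, a telomere-binding protein, had 28.2 and 28.7 CPM in wild type and 21.2, 23.3 and 25.1 CPM in the edited libraries, a log2 fold change of -0.30. TERF1 has 5 named pseudogenes in the files. PLAG1, a transcription factor, was at -0.36 (SE 0.448), but rested on 5 to 12 reads per library. ZBTB10, a zinc finger repressor, stood at 18.4 and 20.9 CPM in the wild-type pair, at 12.6 in both clone 2 and clone 6 replicate 1 and at 24.3 in clone 6 replicate 2, so that the edited libraries lay on both sides of wild type.

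In 33 of 56 members the log2 fold change lay within 0.25 of the median of 0.35, in 10 it lay above that range and in 13 below. Nearest to the median were TCEA1, a transcription elongation factor, ZFAND1, a zinc finger protein, and ARMC1, with 0.33, 0.36 and 0.33. None of these came from equal edited libraries: TCEA1 stood at 134 and 129 CPM in the wild-type pair, at 137.5 in clone 2 and at 127 and 232 in the clone 6 pair. Without clone 6 replicate 2, TCEA1 was at -0.0043 and ZFAND1 at -0.034. The standard deviation of the log2 fold change was 0.42 over the 56 members and 0.32 without PAG1, against 0.94 over all tested genes.

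The other members with overlapping groups were RB1CC1, LYPLA1, PLAG1, VCPIP1, COPS5, STAU2, UBE2W, PEX2, IMPA1, OTUD6B, MTDH, STK3, VPS13B, YWHAZ and ZNF706, besides TCEA1, ZBTB10, ZFAND1 and MYC. All but MYC lie in the proximal and middle blocks. YWHAZ, a 14-3-3 protein that binds phosphorylated partners and took the most reads of any member, stood at 661 and 635 CPM in the wild-type pair, at 644 in clone 2 and at 603 and 678 in the clone 6 pair. Its log2 fold change was -0.013 (SE 0.0907). Besides YWHAZ, the members with a negative log2 fold change were GGH, PLAG1, TERF1, ZBTB10, RAB2A, MTDH, ARFGEF1, PEX2, VCPIP1 and IMPA1.

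MYC, unlike the other members of the distal block, had overlapping groups. It stood at 41.5 and 77.2 CPM in the wild-type pair, at 63.9 in clone 2 and at 57.1 and 196 in the clone 6 pair. Clone 2 and clone 6 replicate 1 thus lay between the wild-type replicates, and clone 6 replicate 2 lay above all others. The log2 fold change was 0.84 (SE 0.571), where its 20 neighbours had a median of 0.49. Of 30 tested MYC target genes encoded elsewhere, 3 were called higher and 1 lower, with a median log2 fold change of 0.10. Over all tested genes 7.64% were called higher and 9.49% lower. Of 8 partners and antagonists of MYC, 1 was called lower, and their median was 0.075.

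**Figure D3:**
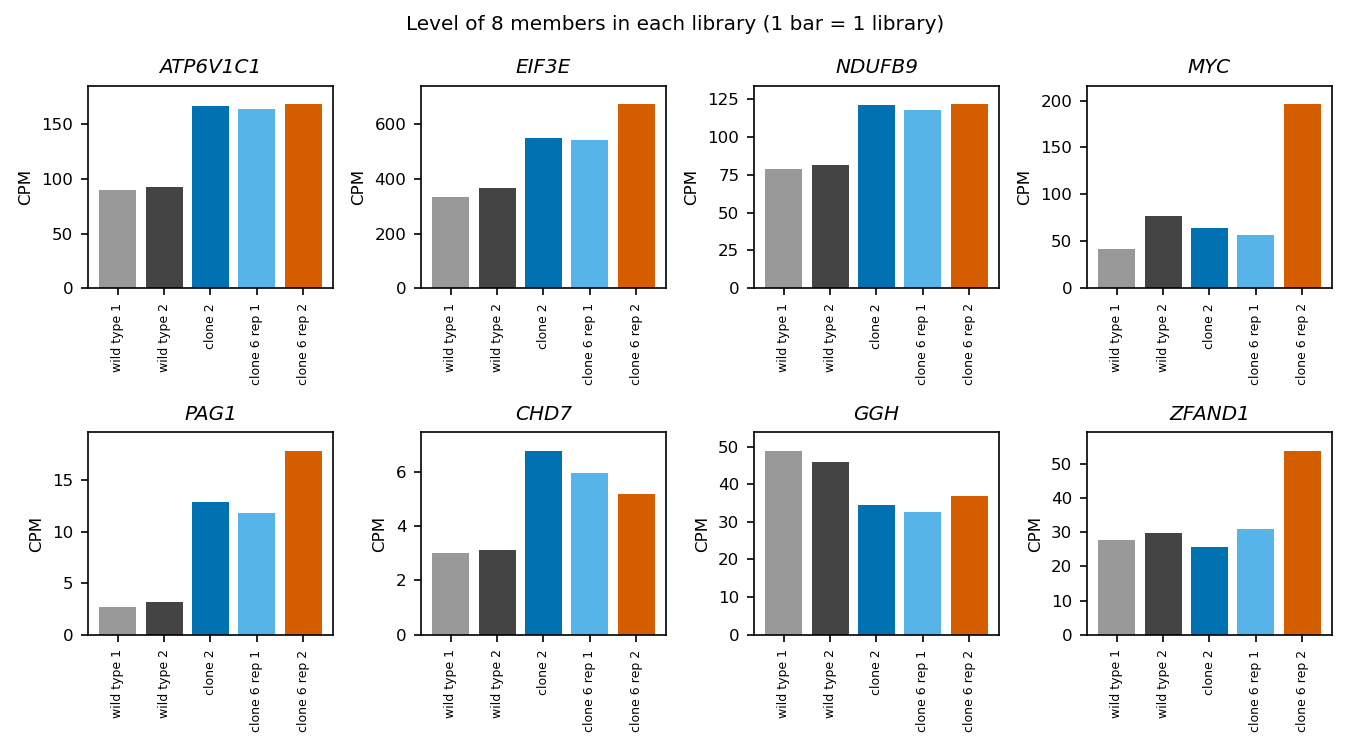
CPM (vertical axes, from 0) of 8 members in each of the 5 libraries, 1 bar per library and a separate scale per gene. In ATP6V1C1, EIF3E, NDUFB9, PAG1 and CHD7 all edited bars exceed both wild-type bars, in GGH all are below, and MYC and ZFAND1 are high in clone 6 replicate 2.

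The members that belong to complexes were set beside the other genes of those complexes, using the edited against wild-type contrast. Over 18 lists, 19 members had a median log2 fold change of 0.39, and 233 partners encoded elsewhere had one of 0.083. In 16 of the 18 lists the member, or for eIF3 the mean of its 2 members, lay above the partners' median. This contrast chose the arm, so members above partners encoded elsewhere were favoured in advance. The comparison is a description, and nothing is read from that count. The exceptions were TERF1 in shelterin, at -0.30 against -0.053, and PEX2 in the peroxisomal import ring, at -0.078 against 0.22. Of these partners 20 were called higher and 15 lower, which is 8.58 and 6.44%, beside 7.64 and 9.49% of all tested genes. The same shares of all tested genes apply to the calls given per complex below.

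In some complexes the member stood above all or nearly all of its partners. The 11 other eIF3 genes lay between 0.0067 and 0.40, with a median of 0.18 and 1 called higher, all below EIF3E and EIF3H. The 6 other genes of the CTF18 clamp loader lay between -0.35 and 0.24 and DSCC1 was at 0.64. For Integrator, which processes small nuclear RNAs, 13 partners had a median of 0.013, with 1 called higher and 4 lower, and INTS8 was at 0.48. Of 34 other complex I genes, 33 lay below NDUFB9, with a median of 0.094, 4 called higher and 3 lower. The 44 other genes of the large mitochondrial ribosomal subunit all lay below MRPL13, with a median of 0.086.

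Complexes of transcription, chromosome structure and protein turnover were set side by side in the same way. POLR2K, a small subunit shared by the RNA polymerases, was at 0.31, above all 11 other polymerase II genes, whose median was 0.017. MED30 exceeded 30 of 31 Mediator partners, with a median of 0.0084, and TAF2 exceeded 13 of 15 TFIID partners, with a median of 0.017. RAD21 was at 0.23 and 11 of 12 cohesin partners lay below it, with a median of -0.024. COPS5, the catalytic subunit of the COP9 signalosome, was at 0.14 where its 8 partners had a median of 0.030. RB1CC1, the scaffold of the ULK autophagy complex, was at 0.32 against 0.073 over 4 partners. STK3, a Hippo pathway kinase, was at 0.12 against -0.19 over 6, and YWHAZ at -0.013 against -0.096 over 6 other 14-3-3 genes.

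In other complexes the partners were not far from the member. The 6 partners of ATP6V1C1 in the V1 part of the proton pump were all positive, from 0.29 to 0.86 with a median of 0.52, and 3 were called higher. In respiratory complex III 4 of 6 partners lay below UQCRB, with a median of 0.18. In cytochrome c oxidase the partners' median was 0.23, and 6 of 9 lay below COX6C. Partners that lie on the same long arm were left out of these counts. One of them, CYC1 of complex III, lies in bin 9 of the arm and stood at 110.5 and 108.5 CPM in the wild-type pair, at 161.5 in clone 2 and at 174 and 183 in the clone 6 pair. Its log2 fold change was 0.66 (SE 0.093). The on-arm genes ATP6V1H, MRPL15 and RRS1, in bins 1 and 2, were at 0.28, 0.11 and -0.067, and BOP1, placed on the arm by its symbol, at 0.34.

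**Figure D4:**
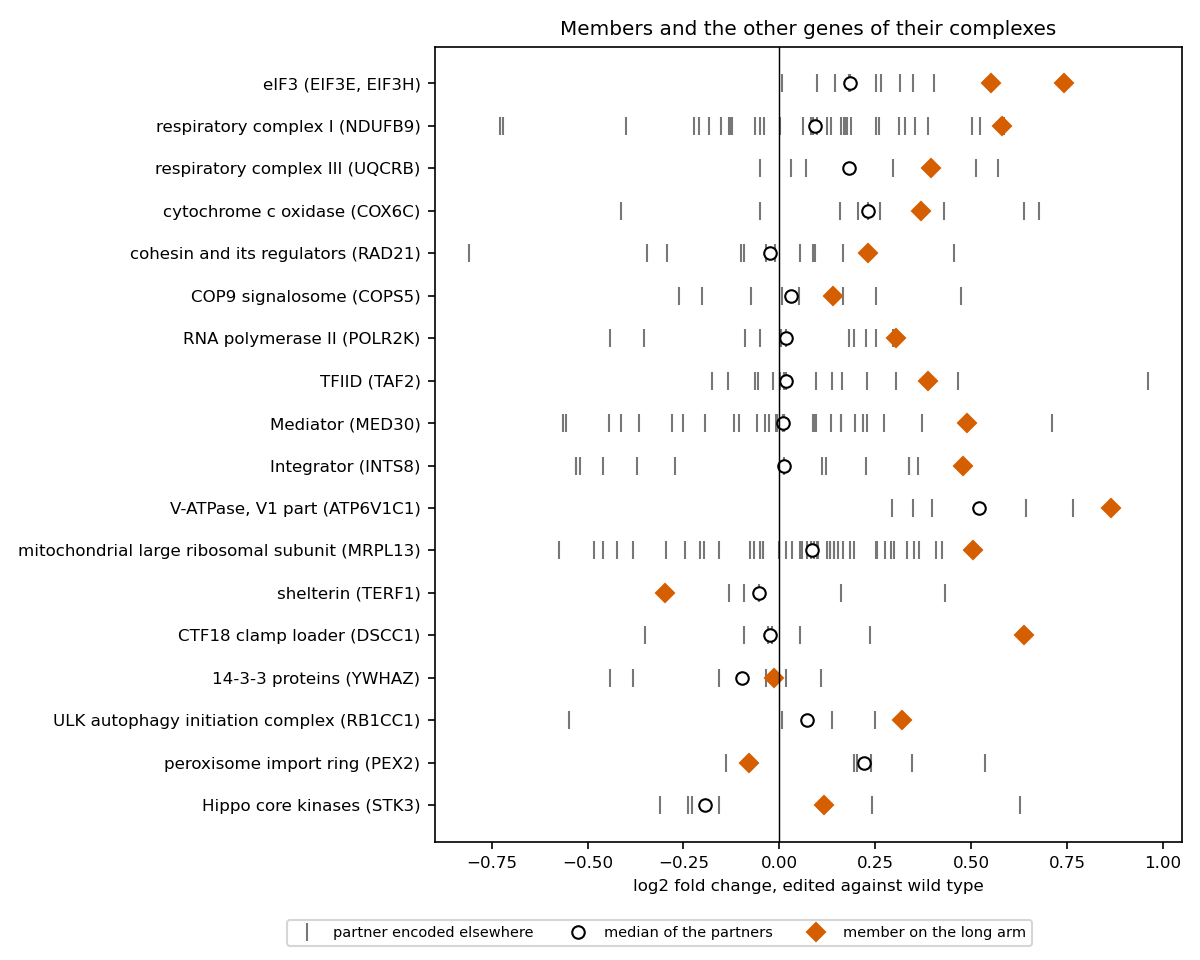
Log2 fold change, edited against wild type (horizontal axis), of the members that belong to a complex (diamonds) and of the other genes of the complex encoded elsewhere (ticks, with their median as a circle), 1 row per complex. The diamonds lie to the right of the circles except for TERF1 and PEX2.

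Each clone was also compared with wild type in a fit with 3 groups. These comparisons share the wild-type libraries. Clone 2 gave a median log2 fold change of 0.25 over the members, with 43 of 56 positive, and clone 6 one of 0.37, with 45 positive. In clone 2, 2 members were called higher, PAG1 and ATP6V1C1, where 1.65% of all tested genes were called higher and 2.16% lower. An unadjusted p below 0.05, in either direction, was reached by 20 members (35.7%) and by 18.7% of all tested genes. In clone 6, 7 were called higher, namely PAG1, ATP6V1C1, EIF3E, DSCC1, TATDN1, NDUFB9 and TPD52, where 3.87% of all tested genes were called higher and 5.11% lower. For clone 6, 25 members (44.6%) and 26.5% of all tested genes had an unadjusted p below 0.05. No member was called lower in either clone by this test. With a term for the replicate number 14 were called higher in clone 6, beside 7.3% of all tested genes. The count was 1, PAG1, without wild-type replicate 1 or 2, beside 0.606 and 0.747%. It was 31 without clone 6 replicate 1, beside 16.2%, and 17 without clone 6 replicate 2, beside 9.4%. For clone 2 it was 0 without wild-type replicate 1 or 2, beside 0.356 and 0.386%, and 20 without clone 6 replicate 1 or 2, beside 8.72 and 9.48%.

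The comparison of clone 6 with clone 2 sets edited libraries against each other, apart from the contrast that chose the arm. It is given as a description of the libraries as labelled. As clone 2 and clone 6 replicate 1 nearly coincided, the gap between the clone 6 libraries enters both the difference and its spread. A call was thus unlikely in advance, and nothing is read from the lack of calls. Since clone 2 and clone 6 replicate 1 were nearly alike and the libraries labelled clone 6 were not, whether the labels mark the clones correctly was not tested, and every value of this comparison depends on it. The wild-type libraries enter it only through the estimate of the spread. Its median log2 fold change over the members was 0.083, with 38 of 56 positive and a range from -0.28 to 0.99, and a median SE of 0.187. No member was called in edgeR's quasi-likelihood test, with a lowest Benjamini-Hochberg adjusted p of 1, and none had an unadjusted p below 0.05. Among all tested genes 0% were called higher and 0% lower, with 114 (0.692%) at an unadjusted p below 0.05. DESeq2 also called 0 members, and 2 of all genes. With that SE and 1 library of clone 2, the result does not show that the clones are alike. Without clone 6 replicate 1, 6 members were called higher in the remaining clone 6 library than in clone 2: TCEA1, ARMC1, ZBTB10, ZFAND1, AZIN1 and MYC. That fit sets 1 library against 1, with the spread taken from the wild-type pair, and 3.1% of all tested genes were called higher and 2.22% lower. Without a filter on low counts, MYC was the 1 member called higher, beside 0.307% of all tested genes.

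Between the libraries labelled clone 6, replicate 2 exceeded replicate 1 in 17 of the 19 members of the proximal block, 13 of 18 in the middle and 16 of 19 in the distal one. The median differences were 0.26, 0.14 and 0.15 on the log2 CPM scale. MYC differed most, by 1.78, followed by ZBTB10 with 0.94, TCEA1 with 0.87, ZFAND1 with 0.80 and MED30 with 0.78. In 36 of 56 members clone 6 replicate 2 was the highest of all 5 libraries. Clone 6 replicate 1 and clone 2, by contrast, had a median difference of -0.030 over the members. Over all tested genes the libraries labelled clone 6 had a median difference of 0.00016, with a wide scatter (median absolute deviation 0.44). The shares of all tested genes for the counts in this paragraph were not computed, so nothing is read from these counts.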

How the data were processed

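Total RNA of 5 SVG-10B1 libraries was sequenced on Illumina HiSeq, per the labels' protocols. The authors deposited 1 file of raw read counts per library, keyed by Ensembl gene. Trimmomatic, STAR, HTSeq and the builds hg19 and GRCh37 are named in the submitters' processing notes. For versions, annotation release and strand setting the sources used here give nothing. Reads of the 42 members that overlap another annotated gene, and of the 14 with named pseudogenes, may be divided uncertainly. Of 63677 genes listed, 5772 had an empty value and were left out, and 0 entries named no gene.

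These counts were tested with edgeR 4.0.16 under R 4.3.3 (TMM, filterByExpr over the 3 groups, quasi-likelihood F test, Benjamini-Hochberg over all tested genes, threshold 0.05). Residual degrees of freedom were 3 for the genotype fit and 2 for the fit with 3 groups. Log2 CPM used a prior count of 2. SE is the log2 fold change divided by the root of F. Gene order and arms came from GENCODE 29 (GRCh38), joined by gene identifier, with the widest gap between annotated genes parting the arms. Its coordinates also gave gene length and the overlaps between annotated genes, on any strand. Overlaps in the annotation behind the counts, on hg19 or GRCh37, may differ. All 56 members had a position in GENCODE 29, and 505 tested genes had none. Of the listed partners, 2 were without a position by identifier and were placed by symbol, 1 of them on the long arm. Alternatives were DESeq2 1.42.0, other scalings and filters, each library left out, a replicate term, a ribosomal RNA covariate and a summed library. The procedure was tested on simulated data. Named were MYC, the 5 highest and 5 lowest members, the 3 nearest the median, those with most reads, members with overlap or negative values, those in complexes and those called between clones. Other members singled out were chosen after their values were seen. Members and lists were chosen with earlier results of these data known. Intervals and standard errors do not cover sources beyond these libraries.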

Additional observations from a re-analysis of the deposited data

Results flagged for a closer look

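Clone 2 and clone 6 lay on opposite sides of wild type in 2 members, with every library of a clone on its side. The share of all tested genes with such an order was not counted, so nothing is read from this number. ZFAND1 stood at 27.5 and 29.6 CPM in the wild-type pair, at 25.55 in clone 2 and at 30.9 and 53.7 in the clone 6 pair. The log2 fold change of clone 6 against clone 2 was 0.73 (SE 0.328), with an adjusted p of 1 in edgeR's quasi-likelihood test. PEX2 stood at 38.96 and 39.83 CPM in the wild-type pair, at 40.13 in clone 2 and at 35.15 and 36.65 in the clone 6 pair, a log2 fold change of -0.16 (SE 0.162), also with an adjusted p of 1. Clone 2 had 1 library, so its side of wild type rests on that library. In PEX2 clone 2 and wild-type replicate 2 were barely apart, at 40.13 and 39.83 CPM. In ZFAND1 clone 6 replicate 1 and wild-type replicate 2 were also close, at 30.9 and 29.6 CPM.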

How the results depend on the processing

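The members' median log2 fold change stayed positive under all 14 alternatives to the edited against wild-type fit, from 0.20 without clone 6 replicate 2 to 0.41 with clone 6 replicate 2 as the sole edited library, an alternative chosen after the data were seen. Leaving out 1 library gave 0.20 to 0.40, and 2 to 25 members called higher and 0 to 5 lower. The 5 called lower, without clone 6 replicate 2, were RAB2A, GGH, TERF1, ZBTB10 and MTDH, where 19.7% of all tested genes were called lower. With the summed library 8 were called higher and 0 lower, with the ribosomal RNA covariate 13 higher and 0 lower, and with clone 6 replicate 2 as the sole edited library 33 higher. In that last fit the medians of the proximal, middle and distal blocks were 0.37, 0.32 and 0.60. The distal block stayed above the proximal one under every one of these alternatives, by 0.24 to 0.43, and all 19 of its members stayed positive. With 1 library left out, medians were 0.27 to 0.33 for the other long-arm genes, 0.026 to 0.078 for short-arm genes and 0.0066 to 0.095 for partners encoded elsewhere. For clone 2 against wild type leaving out 1 library gave 0 to 20 members called higher and 0 to 3 lower, and no filter gave 6 higher. For clone 6 against wild type it gave a median of 0.14 to 0.41, 1 to 31 called higher and 0 to 2 lower, and no filter gave 17 higher. For clone 6 against clone 2 it gave a median of -0.033 to 0.18 and 0 to 6 called higher, and no filter gave 1, MYC. Without a filter, 2.42% of all tested genes were called higher in clone 2 against wild type and 4.53% in clone 6 against wild type. Nothing is read from the numbers called lower for each clone with 1 library left out, since most of those fits hold a group of 1 library. Single members changed sign in 16 cases, 11 members in all, none of them called in the analysis reported.

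Replicate numbers in the labels did not establish pairs: deviations of same-numbered wild-type and clone 6 libraries correlated at 0.17 over all tested genes, but with 2 pairs only. With the replicate block, 25 members were called higher and 1 lower in the edited libraries, beside 13.3 and 14.1% of all tested genes. The members' median with the block was 0.36. For clone 6 against wild type the block gave 14 called higher. Over all tested genes, edited against wild type, 2183 were called higher and 2316 lower with the block, where 1259 and 1563 were called without it. These counts were 1897 and 2377 with no filter, 612 and 908 with the summed library, 2801 and 2669 with clone 6 replicate 2 as the sole edited library, and from 170 to 2780 and from 330 to 3191 with 1 library left out.

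Fits that leave a group with 1 library assume that it varies like the other groups, and the cause of the changes in counts was not tested. Depth limits PLAG1 most, with 5 to 12 reads per library.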
